A study of Rattus norvegicus with 20 samples.

Results

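The lower part of glycolysis was followed through 6 genes: Gapdh, Pkm, the enolases Eno3 and Eno1, and the lactate dehydrogenases Ldha and Ldhb. They were chosen by Ensembl identifier, and all 6 were found among the 32883 genes of the deposited table. The table holds identifiers only, so the names are those of the list that defines the group: ENSRNOG00000018630 for Gapdh, ENSRNOG00000011329 for Pkm, ENSRNOG00000004078 for Eno3, ENSRNOG00000017895 for Eno1, ENSRNOG00000013009 for Ldha and ENSRNOG00000013000 for Ldhb. All 6 passed the filter on low counts, as did 13806 genes in all. Messenger RNA was sequenced from gastrocnemius, a mixed muscle of the calf (10 libraries), and from abdominal white adipose tissue (10 libraries). Both tissues came from the same 10 rats, Fischer 344 x Brown Norway animals aged 8 months for which the labels name no treatment; all had acclimated for 2 weeks to a reversed light cycle and were killed by decapitation under isoflurane. The design text of the series counts 5 males and 5 females whereas every sample label says male, so no comparison by sex was made.

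Glycolysis turns glucose into pyruvate in the cytosol. Gapdh, glyceraldehyde-3-phosphate dehydrogenase, makes the NADH of the pathway; enolase forms phosphoenolpyruvate; pyruvate kinase, encoded by Pkm, passes its phosphate on to ADP. Lactate dehydrogenase interconverts pyruvate and lactate as a tetramer of subunits from Ldha (the M subunit, abundant in fast glycolytic muscle) and Ldhb (the H subunit, abundant in heart and in oxidative fibres). Enolase is a dimer of the ubiquitous alpha subunit (Eno1) and, in striated muscle, the beta subunit (Eno3). White adipocytes use glycolysis to supply glycerol phosphate and acetyl groups for fat, and they release lactate.

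Total counts ran from 8446548 to 20141701 in muscle libraries and from 11067641 to 25904168 in adipose libraries. Muscle library 2 stood apart from the other muscle libraries in 4 of the 6 genes, and results that rest on it are given with and without it. A set of 169 muscle-restricted genes, chosen without the 6 genes, was taken from genes with a muscle median of 20 CPM or more (read counts per 1000000 counts of the library) and 100 or more times the adipose median. Low levels of the set in most adipose libraries therefore follow from the choice. In adipose libraries 1 and 3 the set reached 1.41% and 1.57% of its level in muscle (median over the set), in adipose library 5 it reached 0.448%, and in the other 7 it reached 0.0292% to 0.144%. The tissue labels were not checked against named marker genes, since the table pairs no identifier with a name.

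Transcripts of 4 of the 6 genes were higher in muscle and those of 1, Eno1, were lower, while Ldhb did not pass the test (quasi-likelihood test of edgeR, p adjusted by Benjamini-Hochberg over all 13806 genes, threshold 0.05). Among all tested genes 37.6% were called higher in muscle and 42.2% lower. For Gapdh, Pkm and Eno3 each muscle library lay above each adipose library, or 3 of 6 genes, where 21.0% of all tested genes did so. The median log2 fold change, muscle over adipose, was 4.45 over the 6 genes and -0.09 over all tested genes. Levels are given as CPM scaled by trimmed-mean (TMM) factors unless stated. With library totals in place of these factors log2 fold changes moved down, with a median shift of -1.30 over all genes. The called genes were then 12.3% higher and 74.2% lower of all tested, and the direction and call of Gapdh, Pkm, Eno3, Ldha and Eno1 were as before. In RNA from whole tissue, fewer cells of a type and less RNA per cell cannot be told apart.

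**Figure D1:**
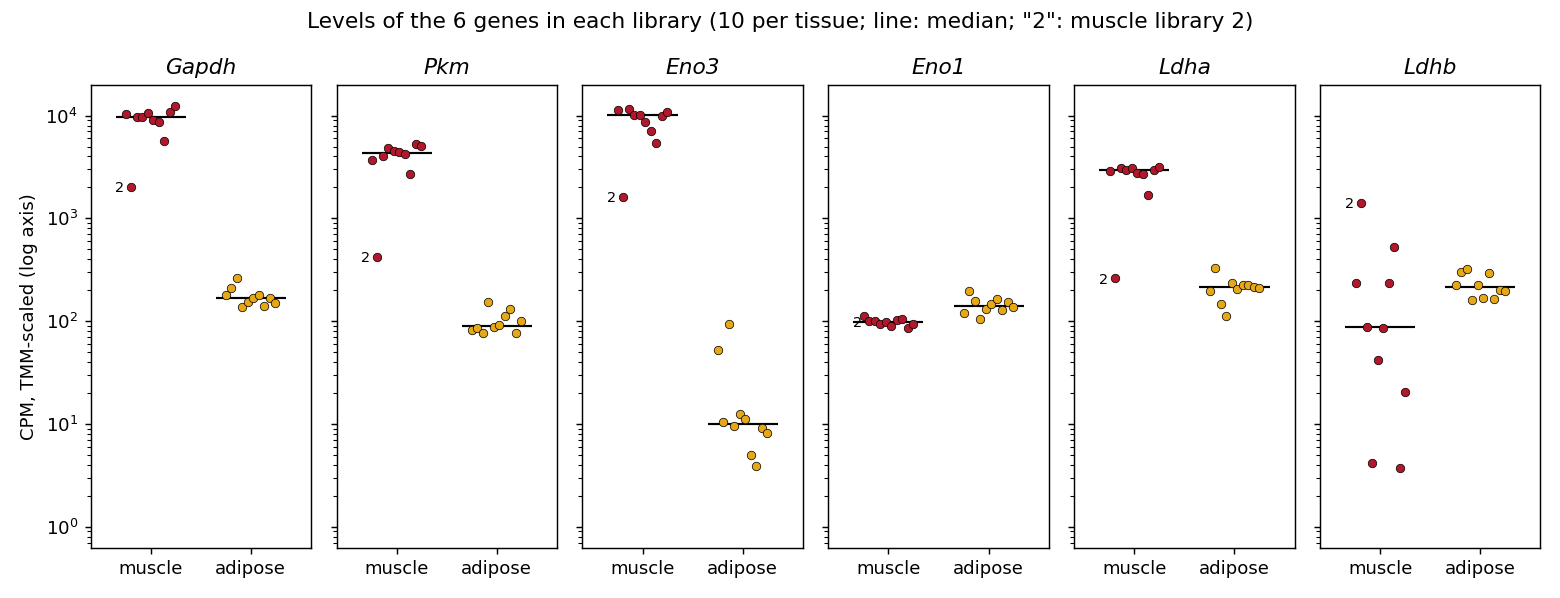
Level of each gene (vertical axis, TMM-scaled CPM, log axis) in the 10 muscle and 10 adipose libraries; each point is a library and each line the median. Muscle library 2 is the lowest muscle library for Gapdh, Pkm, Eno3 and Ldha and the highest for Ldhb, whose muscle libraries run from 3.76 to 1424 CPM.

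Gapdh had 2021 CPM in its lowest muscle library, a median of 9668 and a highest value of 12403, against 137, 168 and 263 CPM for the lowest, median and highest adipose libraries. The groups did not overlap, and the lowest muscle library was library 2, with 5619 CPM in the next lowest. The log2 fold change was estimated at 5.67 (SE 0.29; edgeR, adjusted p = 6.19e-14), or 50.8-fold, and 20.7-fold with library totals. Gapdh is widely used as a reference transcript. Its highest and lowest libraries differed 6.14-fold within muscle, 2.21-fold without muscle library 2, and 1.91-fold within adipose tissue. Rodent genomes hold many near-identical copies of Gapdh, and the handling of reads that map more than once is not stated, so its level is uncertain to that extent.

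Pkm encodes the M1 and M2 forms of pyruvate kinase by alternative splicing, which a count per gene does not separate. It had 423 CPM in muscle library 2, 2716 in the next lowest, a muscle median of 4311 and a highest value of 5264, against 76.9, 89.5 and 153 CPM for the lowest, median and highest adipose libraries. All muscle libraries were above all adipose libraries. The log2 fold change was estimated at 5.29 (SE 0.33; edgeR, adjusted p = 2.33e-12), or 39.2-fold, and 15.3-fold with library totals.

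The enolase pair changed in opposite directions. The RefSeq windows from 250 bases before to 50 bases after the annotated starts (build GRCr8; the counts rest on rn6) are shown for the pairs of isoforms, whose balance carries the results. Capitals mark ACGTG on either strand, a form of the core of the element bound by hypoxia-inducible factor. That factor is known to act on ENO1 and LDHA in human and mouse cells. The core also takes the form GCGTG, which was neither counted nor marked. Of 33469 such windows of all annotated genes, 19.3% hold ACGTG. The Eno3 window (chr10:55868936-55869235, plus strand) holds none, and of the windows of 2 starts of Eno1 (chr5:166002617-166002916 and chr5:166003111-166003410, plus strand) the second holds 1.
Eno3: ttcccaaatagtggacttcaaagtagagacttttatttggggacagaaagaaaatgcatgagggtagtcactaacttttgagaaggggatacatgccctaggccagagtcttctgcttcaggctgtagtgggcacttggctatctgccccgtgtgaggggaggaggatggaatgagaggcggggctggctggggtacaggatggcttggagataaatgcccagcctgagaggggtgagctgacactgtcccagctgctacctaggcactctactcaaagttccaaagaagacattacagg
Eno1, first start: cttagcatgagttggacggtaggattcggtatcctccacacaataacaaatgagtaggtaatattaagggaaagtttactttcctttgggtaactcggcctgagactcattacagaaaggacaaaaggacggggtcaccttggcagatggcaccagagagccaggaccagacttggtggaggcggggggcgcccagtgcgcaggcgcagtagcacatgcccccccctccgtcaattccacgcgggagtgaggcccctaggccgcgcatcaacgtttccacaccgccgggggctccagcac
Eno1, second start: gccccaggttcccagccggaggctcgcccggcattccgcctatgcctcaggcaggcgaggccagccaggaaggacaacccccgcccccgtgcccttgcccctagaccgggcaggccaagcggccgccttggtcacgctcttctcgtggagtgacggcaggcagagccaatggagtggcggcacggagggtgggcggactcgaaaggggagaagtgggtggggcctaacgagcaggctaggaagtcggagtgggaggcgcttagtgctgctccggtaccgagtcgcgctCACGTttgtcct

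Eno3 had 1611 CPM in its lowest muscle library (library 2), a median of 10022 and a highest value of 11592, against 3.86, 10.0 and 93.1 CPM for the lowest, median and highest adipose libraries. No library of one tissue reached the range of the other. The log2 fold change was estimated at 8.66 (SE 0.71; edgeR, adjusted p = 2.25e-10), or 403-fold, rank 136 of the 13806 tested genes. It was 7.45, or 175-fold, with library totals and 10.11 without adipose libraries 1, 3 and 5. These adipose libraries held 52.1, 93.1 and 12.6 CPM, and the other 7 lay between 3.86 and 11.1 CPM. By library totals Eno3 stood at 1.33% and 1.76% of its muscle median in adipose libraries 1 and 3, beside 1.41% and 1.57% for the muscle-restricted genes, and at 0.320% in library 5, beside 0.448%. In the remaining adipose libraries Eno3 was at 0.102% to 0.290% of its muscle median. The part of muscle transcripts in the adipose level of Eno3 was not tested.

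**Figure D2:**
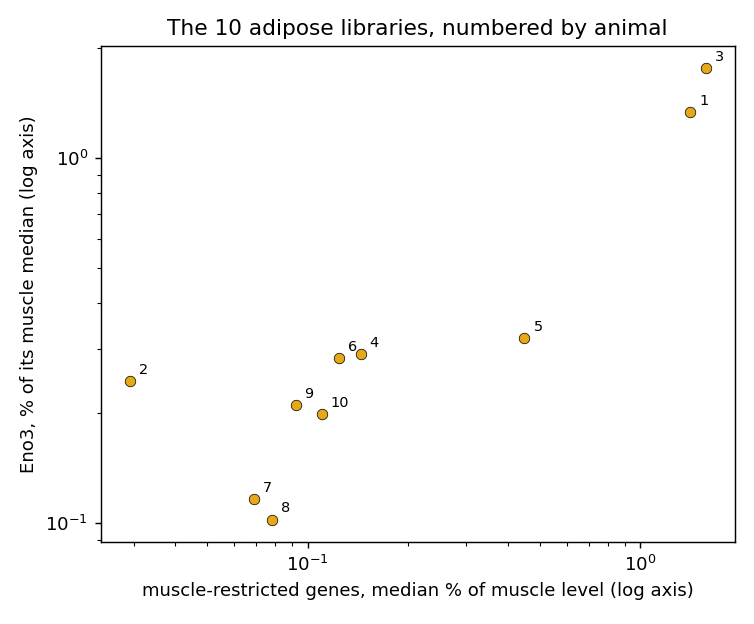
Eno3 (vertical axis, % of its muscle median by library totals, log axis) against the median level of 169 muscle-restricted genes (horizontal axis, % of their muscle level, log axis) in the 10 adipose libraries, numbered by animal. Libraries 1 and 3 are highest on both axes; library 5 follows on both, at 0.320% and 0.448%.

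Eno1 had 86.1, 98.4 and 113 CPM in the lowest, median and highest muscle libraries, against 104, 141 and 198 CPM in the lowest, median and highest adipose libraries. With TMM factors the ranges overlapped, and 8 of 10 muscle libraries lay below all adipose libraries. By library totals 10 of 10 did, with 50.3 to 74.5 CPM in muscle against 188 to 294 CPM in adipose tissue. Eno1 was lower in muscle than in adipose tissue in 10 of 10 animals under both scalings. The log2 fold change was estimated at -0.55 (SE 0.10; edgeR, adjusted p = 2.02e-05), and -1.84 with library totals. With TMM factors Eno1 was among the steadiest transcripts of muscle. Its SD over the 10 muscle libraries was 0.11 on the log2 CPM scale, at percentile 2.56 of the 9320 genes with at least 5 CPM there, and muscle library 2 held 99.9 CPM, close to the median. By library totals, however, library 2 was the highest muscle library for Eno1, with 74.5 CPM against a muscle median of 63.1.

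Reads of the pair therefore lay almost wholly with Eno3 in muscle and mostly with Eno1 in adipose tissue. The share of Eno1 in the reads of Eno1 and Eno3 was 0.859%, 0.970% and 5.84% in the lowest, median and highest muscle libraries, against 62.6%, 93.6% and 97.1% in adipose tissue. Shares are of reads, with no correction for transcript length, so they are set side by side between libraries only. The lowest adipose shares were those of libraries 3 and 1, at 62.6% (95% Wilson interval 61.0 to 64.3) and 69.9% (68.5 to 71.3), and the other 8 lay at 91.3% or more. The highest muscle share, that of library 2, had an interval of 5.53% to 6.16%. Intervals cover counting error only. The mean share was 1.56% ± 1.54 over muscle libraries and 88.6% ± 12.1 over adipose libraries (SD, n = 10 each), lower in muscle in 10 of 10 animals, with a mean difference of -87.1 percentage points (two-sided exact permutation test by sign flips over animals, p = 0.00195, the smallest that 10 animals allow; adjusted over 5 such measures 0.00326). Without animals 1, 3 and 5 the difference was -92.8 points (same exact permutation test, p = 0.0156, the smallest that the remaining animals allow). The log2 ratio of Eno3 to Eno1 reads, whose difference between tissues depends on neither transcript length nor scaling, averaged 6.31 ± 0.89 over muscle and -3.50 ± 1.45 over adipose libraries (SD, n = 10 each). The difference was 9.80 (SD 1.37 over animals, same exact permutation test, p = 0.00195).

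Among the lactate dehydrogenases, Ldha was higher in muscle in 9 of 10 animals, whereas Ldhb covered a wide range in muscle and a narrow one in adipose tissue. The RefSeq window of Ldha (chr1:106507842-106508141, plus strand) holds ACGTG at 3 places counted on both strands, of which 2 overlap in the palindrome CACGTG. That of Ldhb (chr4:177177359-177177658, minus strand) holds no ACGTG. The form GCGTG, which was not counted, occurs in both windows.
Ldha: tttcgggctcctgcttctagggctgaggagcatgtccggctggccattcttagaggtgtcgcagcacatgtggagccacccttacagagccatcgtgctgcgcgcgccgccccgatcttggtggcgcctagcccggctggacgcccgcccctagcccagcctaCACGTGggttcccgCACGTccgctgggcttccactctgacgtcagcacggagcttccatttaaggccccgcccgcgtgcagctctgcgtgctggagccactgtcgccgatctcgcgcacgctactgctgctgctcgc
Ldhb: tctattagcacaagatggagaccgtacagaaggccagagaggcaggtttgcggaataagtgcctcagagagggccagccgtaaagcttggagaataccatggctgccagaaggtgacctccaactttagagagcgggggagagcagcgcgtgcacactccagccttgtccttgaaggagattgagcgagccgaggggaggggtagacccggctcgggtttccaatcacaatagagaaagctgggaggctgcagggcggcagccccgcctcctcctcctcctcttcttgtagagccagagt

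Ldha had 260 CPM in muscle library 2, 1692 in library 8, a muscle median of 2922 and a highest value of 3162, against 112, 213 and 327 CPM in the lowest, median and highest adipose libraries. Muscle library 2 lay within the adipose range, below the 327 CPM of the adipose library of the same animal, and the other 9 muscle libraries lay above it. The log2 fold change was estimated at 3.61 (SE 0.32; edgeR, adjusted p = 5.52e-10), or 12.2-fold, and 4.88-fold with library totals. Without muscle library 2 it was 3.76 (SE 0.18; edgeR, adjusted p = 4.23e-14).

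Ldhb had 3.76, 87.1 and 1424 CPM in the lowest, median and highest muscle libraries, a range of 379-fold, against 162, 213 and 325 CPM in adipose tissue, a range of 2.00-fold. In reads, the muscle libraries held from 35.1 in library 9 and 38.5 in library 4 to 17509 in library 2. Of the muscle libraries, 2 lay above all adipose libraries (library 2, and library 8 with 532 CPM), 2 within their range (libraries 1 and 7, with 233 and 235 CPM) and 6 below. By library totals 1 lay above (library 2), 1 within (library 8) and 8 below. The log2 fold change was estimated at 0.24 (SE 0.71; edgeR, adjusted p = 0.762), and neither direction passed the test in any fit. Its sign was negative with library totals (-0.91), with the animal as a block (-1.48), with limma-voom (-1.59) and without muscle library 2 (-0.69). The mean of log2 CPM was 6.20 ± 2.81 over muscle libraries and 7.77 ± 0.37 over adipose libraries (SD, n = 10 each). An SD of 2.81 was exceeded by 24 of the 9320 genes with at least 5 CPM in muscle, whose median SD was 0.276. Without library 2 the SD was 2.52, exceeded by 15 of 9256 genes, so the spread does not rest on that library alone. In adipose tissue the SD of Ldhb lay at percentile 56.2 of the genes with at least 5 CPM.

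The balance of the lactate dehydrogenase pair differed between the tissues. The share of Ldhb in the reads of Ldha and Ldhb was 0.128%, 2.92% and 84.6% in the lowest, median and highest muscle libraries, against 42.3%, 48.8% and 68.8% in adipose tissue. In muscle it was 0.128% in library 9 (95% Wilson interval 0.0920 to 0.178) and 0.139% in library 4 (0.103 to 0.192). It stayed below 5% in 6 libraries, with 7.43% in library 1, 7.98% in library 7, 23.9% in library 8 (23.4 to 24.5) and 84.6% in library 2 (84.06 to 85.04). The counting intervals of the upper 2 libraries are far narrower than the distance between them. The mean share was 13.2% ± 26.1 over muscle libraries and 51.8% ± 7.80 over adipose libraries (SD, n = 10 each), a mean difference of -38.6 percentage points (SD 29.2), and it was lower in muscle in 9 of 10 animals, the exception being animal 2 (two-sided exact permutation test by sign flips, p = 0.00586, adjusted over 5 measures 0.00586). Without animal 2 the difference was -47.0 points (same exact permutation test, p = 0.00391, the smallest that the remaining animals allow). The log2 ratio of Ldha to Ldhb reads averaged 4.91 ± 3.63 over muscle and -0.11 ± 0.47 over adipose libraries (SD, n = 10 each), a difference of 5.02 (SD 3.77, same exact permutation test, p = 0.00586). Adipose library 3, with the highest Ldhb share of its tissue, held 147 CPM of Ldha and 325 CPM of Ldhb, beside adipose medians of 213 and 213 CPM.

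**Figure D3:**
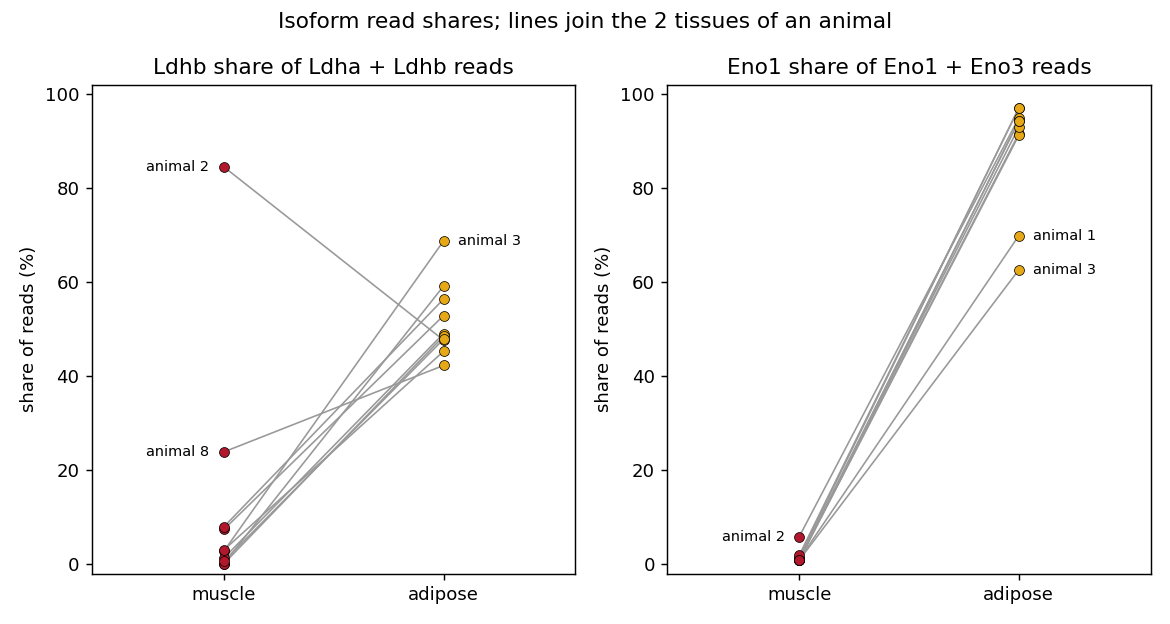
Share of reads (vertical axis, %) of Ldhb among Ldha and Ldhb reads and of Eno1 among Eno1 and Eno3 reads; each point is a library, and grey lines join muscle and adipose tissue of an animal. The Ldhb share is lower in muscle in 9 of 10 animals and 84.6% in muscle of animal 2; the Eno1 share is lower in muscle in 10 of 10.

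Together the 6 genes took 1.53% ± 0.479 of the counts of a muscle library and 0.136% ± 0.0135 of those of an adipose library (SD, n = 10 each). In 10 of 10 animals muscle had the higher share, by 1.40 percentage points (same exact permutation test, p = 0.00195, adjusted over 5 measures 0.00326). Muscle library 2 had the lowest muscle share, 0.436%, and library 8 the next lowest, 1.04%.

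Within muscle, Gapdh, Eno3, Pkm and Ldha were all lowest in library 2 and second lowest in library 8. In library 2 they stood at 20.9%, 16.1%, 9.81% and 8.90% of their muscle medians, and in library 8 at 58.1%, 54.5%, 63.0% and 57.9%. Ldhb ran the other way, at 1634% and 610% of its median in these libraries. A set of 153 adipose-restricted genes was chosen by the rule of the muscle-restricted set with the tissues exchanged. Low levels in muscle therefore follow from the choice. The median over the set was 0.529% of the adipose level in muscle library 2 and 0.203% to 0.396% in the other muscle libraries. By library totals Ldhb stood at 1062 CPM in muscle library 2, above the 277 to 444 CPM of the adipose libraries themselves. The part of adipose transcripts in the Ldhb level of muscle library 2 was not tested.

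Correlations of log2 CPM over the 10 libraries of each tissue were computed for all 15 pairs of the 6 genes, 30 relations in all. Points share the scaling factor of their library. In muscle 9 of 15 pairs passed by r and 8 by rho (permutation test, adjusted p below 0.05 over 30 relations). The 6 pairs among Gapdh, Eno3, Pkm and Ldha had r of 0.95 to 0.99 in muscle, and 6 of 6 passed, against 3 of 6 by rank, with rho of 0.35 to 0.87. Without libraries 2 and 8 their r ran from -0.02 for Eno3 with Pkm to 0.81 for Eno3 with Ldha, so much of the common variation rests on these libraries. Pkm and Ldhb were opposed in muscle with r = -0.70 (permutation p = 0.00028, adjusted 0.0028) and rho = -0.95 (permutation p = 0.00012, adjusted 0.0036). Without libraries 2 and 8 their r was -0.89. Ldha and Ldhb had r = -0.63 (permutation p = 0.0151, adjusted 0.0452) and rho = -0.75 (permutation p = 0.0161, adjusted 0.0483), with r = -0.40 without libraries 2 and 8. Eno1 and Ldhb had r = 0.71 (permutation p = 0.0217, adjusted 0.05003, not below the threshold) and rho = 0.77 (permutation p = 0.0127, adjusted 0.0476), with r = 0.66 without libraries 1 and 9.

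In adipose tissue 1 of 15 pairs passed by r. Gapdh and Ldhb had r = 0.85 (permutation p = 0.00065, adjusted 0.0039) and rho = 0.88 (permutation p = 0.00164, adjusted 0.0212), with r = 0.69 without libraries 2 and 3. The same pair had r = -0.69 in muscle, with r = -0.41 without muscle libraries 2 and 8. The difference between the tissues was not tested. By rank Gapdh and Pkm also passed in adipose tissue, with rho = -0.79 (permutation p = 0.00847, adjusted 0.0476), beside r = -0.67 (permutation p = 0.0332, adjusted 0.0622) and r = -0.69 without libraries 2 and 3.

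**Figure D4:**
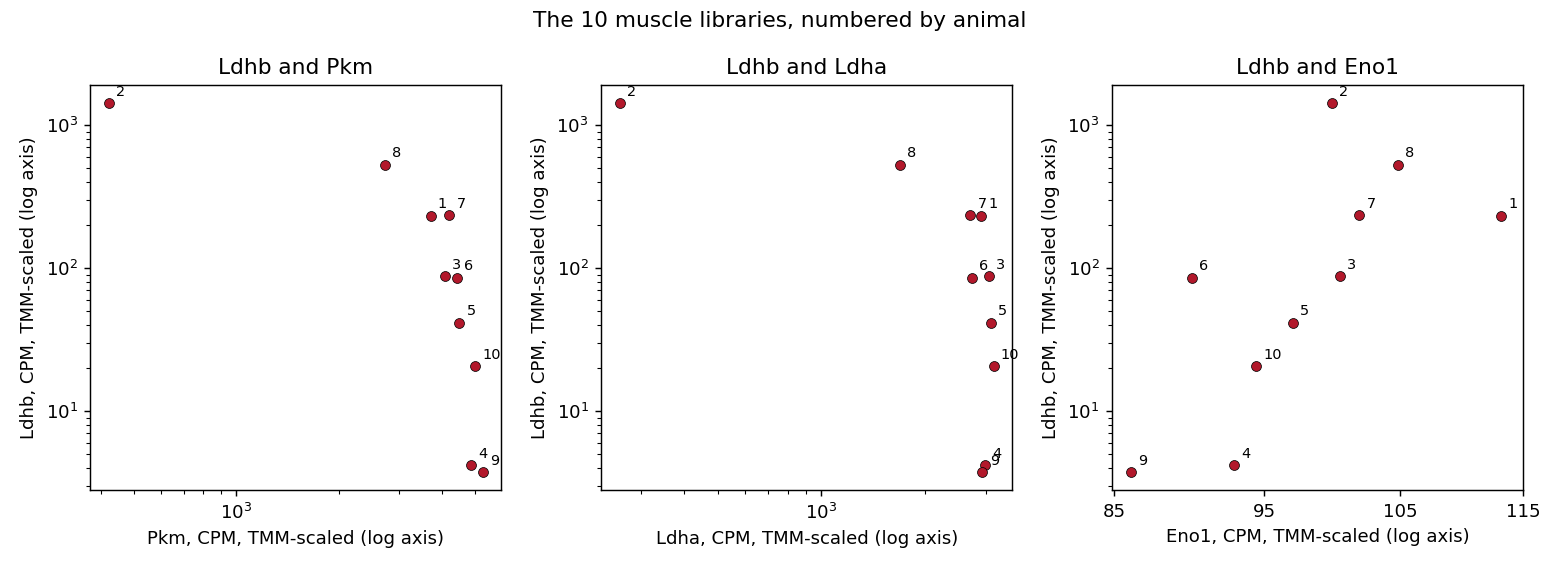
Ldhb (vertical axis, TMM-scaled CPM, log axis) against Pkm, Ldha and Eno1 (horizontal axes, TMM-scaled CPM, log axis) in the 10 muscle libraries, numbered by animal. Libraries 2 and 8 combine the highest Ldhb with the lowest Pkm and Ldha, and libraries 4 and 9 hold the least Ldhb; Eno1 spans 86.1 to 113 CPM.

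Other genes followed the same patterns in muscle. Of 9319 genes with at least 5 CPM there, 37 had r of at least 0.95 with Ldhb over the 10 muscle libraries. The most alike was ENSRNOG00000002934, with r = 0.993, and r = 0.996 without library 2. Its level ran from 12.9 CPM in library 9 to 301 in library 2. For Eno3 170 genes had r of at least 0.95, with ENSRNOG00000013532 the most alike (r = 0.999, and 0.997 without library 2), at 669 CPM in library 2 and 4632 in library 3. Over all 10 libraries, Gapdh, Ldha and Pkm ranked 24, 47 and 145 in likeness to Eno3. Without libraries 2 and 8 their r with Eno3 was 0.64, 0.81 and -0.02. The counts of 37 and 170 genes are over all 10 libraries, with library 2 among them. The r values over 10 libraries are descriptions and rank genes chosen for their likeness.

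Whether animals kept their rank across tissues was examined for the 6 levels and both log2 ratios, 8 relations over 10 animals. With r, 0 of 8 passed (permutation test, Benjamini-Hochberg over 8 relations, lowest adjusted p = 0.615), and 0 had an unadjusted p below 0.05 by r or by rho. The log2 ratio of Ldha to Ldhb had r = -0.24 (permutation p = 0.497, adjusted 0.662) and rho = -0.36 (permutation p = 0.314, adjusted 0.503), with r = -0.30 without animals 2 and 9. That of Eno3 to Eno1 had r = 0.40 (permutation p = 0.271, adjusted 0.615) and rho = 0.61 (permutation p = 0.0669, adjusted 0.356), with r = 0.44 without animals 2 and 8. A number of 10 animals leaves wide room for a relation that was not detected.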

How the data were processed

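The authors deposited expected counts per gene and library, not normalised; 25.3% of values above 0 were whole within 0.005. Per the submitters' processing notes, bcl2fastq, STAR and featureCounts were used with the assembly rn6. Their versions, the annotation, the strand setting and the handling of reads that map more than once are not given in the sources used. Per the labels' protocols, muscle (10 mg) and adipose tissue (30 mg) were extracted and libraries of mRNA were made from 300 ng of RNA.

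Counts were rounded and analysed in R 4.3.3 with edgeR 4.0.16 (filterByExpr, TMM factors, robust quasi-likelihood test, adjusted over all tested genes, log2 CPM with a prior count of 2), by tissue. Isoform shares and ratios used unrounded counts and an exact sign-flip test over animals; correlations used 100000 permutations. The fit was tested on counts simulated for both groups from the adipose mean profile and adipose spread. It called 7.5% of 1.41-fold, 62% of 2-fold and 97.4% of 4-fold changes, and 0.0225% of unchanged genes. The simulation held neither the shift in composition between the tissues nor the spread of muscle libraries, so it does not cover them. The 6 genes, the lists and the libraries to leave out were chosen with earlier results of these data known. Named genes are the 6, plus the gene most like Ldhb and the gene most like Eno3 in muscle. Lists of other pathway genes and of cell type markers were not run, because the reference tables pair 0 Ensembl identifiers with a symbol.

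The titles and the design text make same-numbered libraries those of 1 animal. Their deviations from the tissue means had a correlation of -0.16 to 0.25, with a median of 0.06 against -0.01 between animals, so the pairing rests on the labels. No libraries agreed within sampling noise (lowest chi-square per degree of freedom 11.5). Alternatives were other scaling factors and filters, the animal block, limma-voom (limma 3.58.1), DESeq2 1.42.0 and left-out libraries. Leaving out muscle library 2 together with adipose libraries 1, 3 and 5, the comparison of spread among genes with at least 5 CPM, and the cross-tissue correlations without animals 1, 3 and 5 were added after seeing the data.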

Additional observations from a re-analysis of the deposited data

Results flagged for a closer look

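For 22 groups of 10 libraries (6 levels and 5 shares or ratios in each tissue), the highest and lowest library was compared with its neighbour, and 7 gaps were wider, relative to the range, than Dixon's 95% limit. By chance about 1 in 20 groups would be set apart so, and these measures are not independent. All 7 were muscle library 2. Its log2 CPM was 10.98 for Gapdh, next to 12.46 in the nearest muscle library, 10.65 for Eno3, next to 12.42, 8.73 for Pkm, next to 11.41, and 8.02 for Ldha, next to 10.72. Its Ldhb read share was 84.6%, next to 23.9%, its Eno1 read share 5.84%, next to 1.88%, and its log2 ratio of Eno3 to Eno1 reads 4.01, next to 5.70. Its total of 16480287 counts lay within the range of the other muscle libraries.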

How the results depend on the processing

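The calls and directions of Gapdh, Pkm, Eno3, Ldha and Eno1 and of the 5 shares and ratios were as reported under all alternatives run. Ldhb passed the test in none of 21 alternative fits, with adjusted p from 0.081 (limma-voom) to 0.971 (edgeR without animal 8). With the animal as a replicate block the adjusted p was 0.108 (edgeR). The log2 fold change of Ldhb was negative in 6 fits. It was -0.91 with library totals, -1.59 with limma-voom and -1.48 with the animal block. It was also -0.69 without muscle library 2, -0.59 when adipose libraries 1, 3 and 5 were left out too, and -0.65 without animal 2. Leaving out each animal gave -0.65 to 0.44. The mean CPM of Ldhb was higher over muscle libraries (267) than over adipose libraries (225). Its mean log2 CPM was lower over muscle libraries (6.20) than over adipose libraries (7.77). The cause of the change in sign was not tested. For Eno3 the log2 fold change was 10.11 without adipose libraries 1, 3 and 5, 9.32 without animal 3, 9.34 with limma-voom, 9.32 with the animal block and 7.45 with library totals, beside 8.66. The animal block changed no call of the 6 genes; it called 10990 genes beside 11011 without it. Library totals called 11932 genes, of which 14.2% were higher in muscle, beside 47.1% with TMM factors. The Ldhb share difference ran from -47.0 to -32.4 percentage points, with the exact permutation p at most 0.0469, reached without animals 1, 3 and 5. Muscle libraries 4 and 9 held 39 and 35 Ldhb reads, so counting error is large relative to their Ldhb shares, though their intervals are narrow in percentage points.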
